A study of Mus musculus with 186 samples.

Results

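The genes followed here through every region, age and genotype of a mouse brain RNA series are inhibitors that the ERK pathway switches on to restrain itself: Dusp1, Dusp4, Dusp5, Dusp6, Dusp14, Spry1, Spry2, Spry4, Spred1 and Trib1. They are 10 of the 28338 genes in the deposited table. The set was chosen by the measured difference between knockout and wild type somatosensory cortex at 4 weeks, in which 3 of them (Dusp5, Spry4 and Trib1) were lower, and the rest are their functional relatives. That comparison therefore chose the genes and is described below with no test. The series holds bulk libraries from mice that are wild type (WT), Akap11 +/- (HET) or Akap11 -/- (KO), 96 of them at 4 weeks of age and 90 at 12 weeks. Akap11 encodes an anchoring protein that tethers protein kinase A (PKA) to sites in the cell. The 6 dissected regions were hippocampus (HP), thalamus (TH), striatum (STR), substantia nigra (SN), prefrontal cortex (PFC) and somatosensory cortex (SSC), which makes 36 groups, 30 of 5 libraries and 6 of 6. The strain, the sex, the way the allele was made and whether WT mice were littermates are left unstated by the labels.

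The ERK pathway carries signals from growth factor receptors and, in neurons, from synaptic activity, through RAS, RAF and MEK kinases to the ERK kinases, which then enter the nucleus and turn genes on. Among the genes turned on are brakes on the same pathway. The Dusp genes encode phosphatases that remove the activating phosphates from MAP kinases, with Dusp5 acting on ERK in the nucleus and Dusp6 on ERK in the cytoplasm. Dusp1 and Dusp4 encode nuclear phosphatases that act on several MAP kinases, and Dusp14 encodes a small member of the family that lacks its kinase-binding domain. Sprouty proteins (Spry1, Spry2, Spry4) act between the receptor and RAF, Spred1 recruits neurofibromin to switch RAS off, and Trib1 encodes a pseudokinase that serves as a scaffold for a ubiquitin ligase. In brain tissue, RNA of several of these genes is known to rise quickly with neuronal activity, as it does for early genes such as Fos.

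RefSeq promoter windows of build GRCm38.p6, running from 250 bases before the annotated start to 50 after it, were found for 7 of the 10 members. Dusp5 and Dusp1 are shown because their windows hold motifs of activity-responsive transcription, and Dusp6 because it varied most closely with Dusp5 across libraries yet holds none of the motifs searched. Capitals mark the motif matches, positions count from the annotated start, and each window is 300 bases long. The Dusp5 window is chr19:53528895-53529194 on the plus strand, the Dusp1 window chr17:26508423-26508722 on the minus strand, and the Dusp6 window chr10:99262981-99263280 on the plus strand.
Dusp5: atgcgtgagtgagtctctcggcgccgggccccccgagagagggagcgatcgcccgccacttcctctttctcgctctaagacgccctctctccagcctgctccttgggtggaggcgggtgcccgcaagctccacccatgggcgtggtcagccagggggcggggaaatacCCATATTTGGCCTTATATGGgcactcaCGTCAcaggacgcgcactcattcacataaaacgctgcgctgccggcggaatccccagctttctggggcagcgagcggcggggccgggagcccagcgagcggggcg
Dusp1: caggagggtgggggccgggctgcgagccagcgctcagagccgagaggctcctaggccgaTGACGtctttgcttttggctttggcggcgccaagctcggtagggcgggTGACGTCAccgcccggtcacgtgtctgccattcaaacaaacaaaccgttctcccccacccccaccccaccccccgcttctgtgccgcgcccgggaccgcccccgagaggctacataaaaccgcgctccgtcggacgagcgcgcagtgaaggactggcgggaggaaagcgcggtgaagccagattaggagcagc
Dusp6: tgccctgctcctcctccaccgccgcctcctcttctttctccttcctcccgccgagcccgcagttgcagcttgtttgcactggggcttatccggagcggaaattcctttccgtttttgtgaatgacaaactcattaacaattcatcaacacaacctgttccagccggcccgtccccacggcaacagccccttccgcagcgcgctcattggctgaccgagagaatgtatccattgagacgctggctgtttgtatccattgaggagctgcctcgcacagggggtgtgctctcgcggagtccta

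Both strands were searched, and the share of all 32851 promoter windows with a match was counted for each motif. The Dusp5 window holds 2 adjacent CArG boxes, the binding motif of serum response factor, at -82 to -73 and -72 to -63, and 1.63% of all windows hold that motif. Dusp1 holds the full cAMP response element TGACGTCA at -143 to -136, found in 1.79% of windows. The shorter core TGACG, which lies within the full one, was found in 20.8% of windows, among them Dusp1 and, as CGTCA at -55 to -51, Dusp5. The ETS motif CCGGAA, in 14.9% of windows, was found in Dusp14 at -65 to -60 and in Spry2 at 33 to 38. The AP-1 motif TGANTCA, in 7.81% of windows, was found in none of the 7 members. A match describes letters in this window and is neither a shown binding site nor a cause of any level below.

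Library totals ran from 20.8 to 73.3 M expected counts, and no member had fewer than 33 counts in any library. Levels are given as counts per M (CPM) scaled over all libraries, and a fold change is a log2 difference with its standard error (SE). Calls are edgeR calls with an adjusted p under 0.05. Akap11 RNA in KO stood at 5.08 to 7.98% of the WT mean over the 12 sets of region and age, and in HET at 50.2 to 61.8%. One library went against its label: the SN library labelled WT 92 at 4 weeks had 44.8 CPM of Akap11, against 197 to 245 CPM in the others. Libraries are named by genotype and the sample number in their titles, which recurs across regions, although the labels do not say that a number marks an animal. In tissue samples, fewer cells of a type and less RNA per cell cannot be told apart.

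In SSC at 4 weeks, the nuclear ERK phosphatase gene Dusp5 (chr19:53529109-53542431) was lower in KO. Its WT level was 11.7 CPM in WT 142, 28.8 in WT 23, 21.1 in WT 913, 26.1 in WT 914 and 25.7 in WT 92. In KO it was 11.9, 13.1, 10.9, 12.6 and 9.44 CPM in KO 12, 161, 163, 51 and 932. All KO libraries were below 4 of the WT libraries, and WT 142 sat among the KO. HET libraries lay between, with a lowest value of 15.9, a median of 16.7 and a highest of 19.6 CPM. The means ± SD were 22.7 ± 6.74 in WT (n = 5), 17.4 ± 1.46 in HET (n = 6) and 11.6 ± 1.45 in KO (n = 5), a log2 fold change of -0.98 ± 0.17 (SE) in KO and of -0.39 in HET.

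The Sprouty gene Spry4 (chr18:38586247-38601415) showed the same layout in this set. WT 142 had 11.6 CPM and the other WT libraries 19.2 to 23.6, while KO ran from 8.60 to 12.7 and HET from 13.3 to 17.5. The means ± SD were 19.6 ± 4.80, 15.8 ± 1.53 and 10.7 ± 1.73 CPM in WT, HET and KO. The fold change in KO was -0.88 ± 0.15 on the log2 scale. The pseudokinase gene Trib1 (chr15:59648350-59657099) had 21.2 CPM in WT 142, 35.3 to 43.4 in the other WT libraries, 23.3 to 35.4 in HET and 12.5 to 22.3 in KO. Its means ± SD were 36.9 ± 9.39, 29.9 ± 4.92 and 17.9 ± 4.33 CPM, a log2 fold change of -1.05 ± 0.19 in KO. For both genes KO and WT overlapped through WT 142 alone.

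Of the other phosphatase genes, Dusp6 (chr10:99263231-99267489) was among the nearest to the 3 genes above. Its WT levels were 83.0 in WT 142, then 116, 118, 125 and 108 CPM, and its KO levels were 51.6, 68.8, 95.3 in KO 163, 56.3 and 38.1 CPM. WT 142 was below KO 163, and otherwise the groups were apart. The log2 fold change was -0.83 ± 0.18. For Dusp1 (chr17:26505590-26562128) WT had 29.3 CPM in WT 142 and 55.8, 64.3, 65.7 and 55.3 in the rest, against 24.3, 34.9, 30.5, 43.2 and 15.1 in KO, with a log2 fold change of -0.87 ± 0.23. Dusp4 (chr8:34807297-34819894) had 6.73, 13.4, 11.2, 15.0 and 14.4 CPM in WT and 6.13 to 9.13 in KO, a log2 fold change of -0.66 ± 0.20. For both genes WT 142 was the single WT library within the KO range. The annotated span of Dusp1 overlaps Ergic1 on the other strand, and that of Dusp5 an antisense gene. Whether the counting used the strand is not stated, so reads of these pairs may be shared.

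The remaining 4 members differed little in this set. Spry2 (chr14:105891947-105896819) had a log2 fold change of -0.29 ± 0.09 in KO and Spry1 (chr3:37639947-37644598) of -0.20 ± 0.08. Dusp14 (chr11:84048041-84069261) was at -0.10 ± 0.11 and Spred1 (chr2:117121374-117182279) at -0.03 ± 0.12. The 10 members had a median of -0.75 in KO, against 0.005 over all 15945 genes tested, and in HET a median of -0.29 with 10 of 10 lower. In this comparison 9 genes, or 0.0564% of those tested, were called, Akap11 among them. The rule's threshold fell between Trib1, at an adjusted p of 0.0451, and Dusp6, at 0.145. Since these values chose the members, nothing is read from the count.

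**Figure D1:**
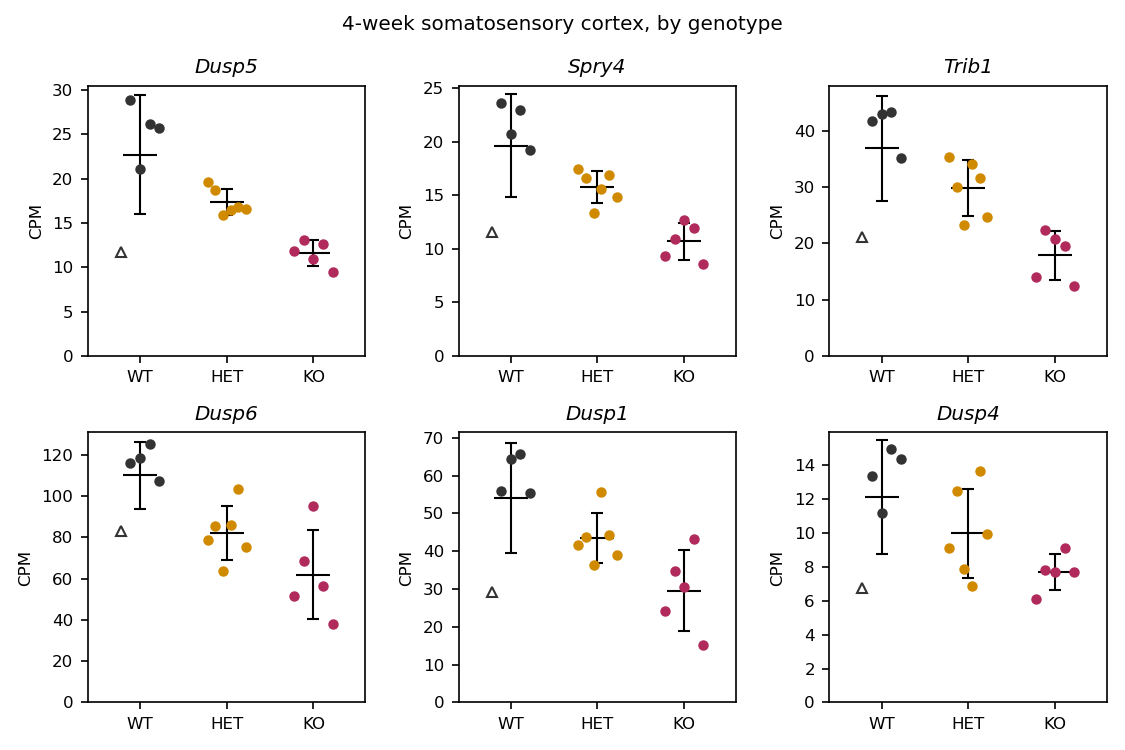
Levels in CPM (vertical axis) of Dusp5, Spry4, Trib1, Dusp6, Dusp1 and Dusp4 in somatosensory cortex at 4 weeks, by genotype (horizontal axis). Points are libraries, dashes with bars are the mean ± SD, and the open triangle is WT 142, which lies near the KO libraries in each panel (for Dusp5 at 11.7 CPM against a KO mean of 11.6).

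The library WT 142, singled out after its values were seen, held the lowest WT value in SSC for 8 of the 10 members and for 14 of 19 activity-induced early genes. Of its values above 0, 5.34% were whole numbers. WT 914, KO 12 and KO 163 of this set were as low, at 4.8, 5.2 and 5.55%, and the other WT and KO libraries were at 21.1 to 26.3%. With each WT or KO library left out in turn, the log2 fold change in KO ran from -1.14 to -0.88 for Dusp5, from -1.02 to -0.81 for Spry4 and from -1.20 to -0.95 for Trib1. The far end was reached without WT 142 in each. The number of members that met the rule's threshold moved with the libraries, at 5 without WT 142, 3 without KO 163 and 0 without any 1 of the other 8. These counts describe how far the choice of members rests on single libraries and test nothing.

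The activity-induced early genes moved with the members in this set. Of 19, 18 were lower in KO, with a median log2 fold change of -0.52, and Arc, which encodes a synaptic protein made on activity, was at -1.99, from 482 ± 206 CPM in WT to 121 ± 55.5 in KO. Fos was at -1.61, Nr4a1 at -1.35 and Egr2 at -2.10. Their summed level was 1284 to 2533 CPM in WT, 1017 to 1770 in HET and 778 to 1327 in KO, with WT 142 at the WT minimum. With a score of these early genes as a covariate, Dusp5 was at -0.51, Trib1 at -0.31, Spry4 at -0.27 and Dusp6 at -0.19. The score is itself lower in KO, so its part in the members' difference and that of genotype cannot be told apart. Excitatory neuron markers were lower in 3 of 8 (median 0.03) and summed to 4525 to 6973 CPM in WT and 4823 to 7388 in KO, and oligodendrocyte markers were lower in 0 of 6 (median 0.09). Endothelial and mural markers were lower in 7 of 7 (median -0.12), microglial markers in 6 of 6 (median -0.07) and striatal projection neuron markers in 7 of 8 (median -0.14), and their part was not tested.

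Genes elsewhere in the pathway are given for SSC at 4 weeks with no contrast to the members. Their lists were drawn up with earlier results of these data known. Of 19 other feedback genes, 16 were lower in KO, with a median log2 fold change of -0.08. The 28 kinases and adaptors of the cascade had 14 lower and a median of 0.002, and 13 of 21 ligands and receptors were lower. Of 16 ERK-responsive factors and targets, 13 were lower, with a median of -0.14.

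The prefrontal cortex gave the nearest comparison that did not choose the members, although all 5 WT and 4 of 5 KO sample numbers are those of SSC, and the brains may be the same. At 4 weeks 9 of the 10 members were lower in KO, with a median log2 fold change of -0.21 against 0.01 over all genes. None was called in edgeR, where 2 of 15970 genes (0.0125%) were. At an unadjusted p under 0.05, 5 members were lower, and 7.2% of all genes were. DESeq2 called Dusp5 (adjusted p 0.0412), Spry4 (0.025) and Trib1 (0.025), at a background of 0.878% of genes.

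Dusp5 in PFC at 4 weeks was 9.52 CPM in WT 142, 16.2 in WT 23, 12.4 in WT 913, 19.7 in WT 914 and 14.5 in WT 92, and 8.24, 6.83, 11.9, 4.19 and 5.77 CPM in KO 12, 161, 44, 51 and 932. KO 44 overlapped the WT libraries and the other KO libraries lay below them all. HET ran from 4.97 to 12.2 with a median of 8.76 CPM. The means ± SD were 14.5 ± 3.86, 8.91 ± 2.75 and 7.38 ± 2.91 CPM in WT, HET and KO, and the log2 fold change in KO was -0.97 ± 0.27 (adjusted p 0.198). Without KO 44 it was -1.21 (adjusted p 0.0357). That library was singled out after its values were seen, and leaving out the highest KO value widens the difference by itself. The refit therefore describes how far the result rests on 1 library and tests nothing.

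Spry4 in this set was 15.8 CPM in WT 142, then 25.2, 21.6, 26.2 and 21.3, against 14.1, 13.5, 19.0, 15.9 and 11.7 in KO, a log2 fold change of -0.57 ± 0.14 (adjusted p 0.178). Without KO 44, again the highest KO library, it was -0.67 (adjusted p 0.0256), with the same limit. Trib1 was 29.4 in WT 142, then 35.9, 46.5, 57.5 and 41.5, with KO at 22.2 to 29.6 CPM and a log2 fold change of -0.70 ± 0.17 (adjusted p 0.184). KO overlapped WT for Spry4 and Trib1 only at WT 142.

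Dusp6 was the member whose KO and WT libraries did not overlap, where 0.808% of genes were lower without overlap. It was 74.7, 77.7, 103, 165 in WT 914 and 85.8 CPM in WT, 72.3 to 95.7 in HET and 65.4 to 72.0 in KO. The log2 fold change of -0.54 ± 0.16 (adjusted p 0.211) rested in part on WT 914, and was -0.30 without it. Of the values above 0 in WT 914, 5.42% were whole numbers, against 22 to 30.3% in the other WT and KO libraries of this set. The part of that trait was not tested here. Spry2 was at -0.24 ± 0.11 (adjusted p 0.300). Dusp1, which was lower in SSC, was at -0.18 ± 0.23 here, and Dusp4, Dusp14, Spry1 and Spred1 were between -0.12 and 0.01. In HET, Dusp5 was at -0.70, Trib1 at -0.35 and Spry4 at -0.33, each with an unadjusted p under 0.05 and an adjusted p of 0.847.

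**Figure D2:**
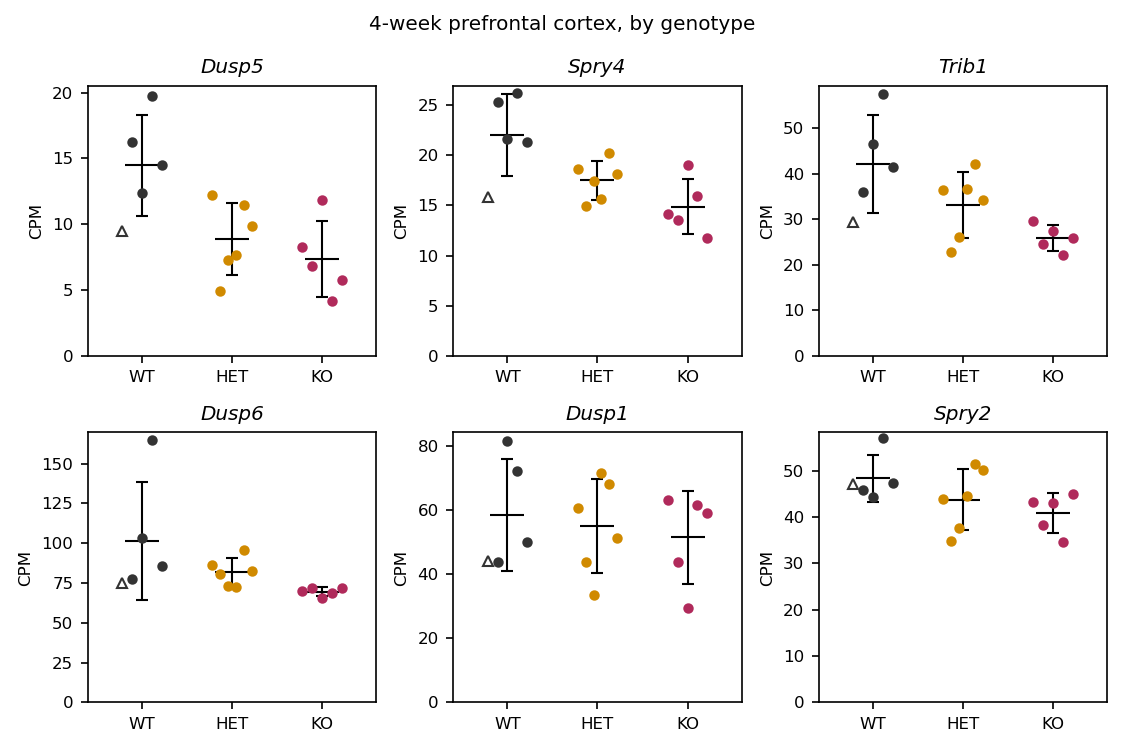
Levels in CPM (vertical axis) of Dusp5, Spry4, Trib1, Dusp6, Dusp1 and Spry2 in prefrontal cortex at 4 weeks, by genotype (horizontal axis). Points are libraries, dashes with bars are the mean ± SD and the open triangle is WT 142; for Dusp6 all KO libraries (65.4 to 72.0 CPM) lie below all WT libraries.

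Some other measures moved with the members in PFC at 4 weeks, and others moved the other way. Early genes were lower in 16 of 19, with a median log2 fold change of -0.52, and summed to 1377 to 2953 CPM in WT and 970 to 1513 in KO. Oligodendrocyte markers were lower in 6 of 6, with a median of -0.78 (783 to 2096 CPM in WT, 377 to 1493 in KO). Excitatory neuron markers were lower in 7 of 8, with a median of -0.34 (3966 to 6988 CPM in WT, 3599 to 4307 in KO). Astrocyte markers were higher in 6 of 6 (median 0.23), thalamic markers in 6 of 7 tested (median 0.23) and endothelial and mural markers in 5 of 7 (median 0.20). With the early-gene score as a covariate, Dusp5 was at -0.68, Spry4 at -0.45, Trib1 at -0.37 and Dusp6 at -0.22. The part of the cell type markers in these differences was not tested. Beyond the members, 15 of 19 other feedback genes were lower and 0 were called, and the cascade was even at 14 lower of 28.

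At 12 weeks no member was called in either cortical region. In PFC the KO effect was 0.10 for Dusp5, -0.02 for Spry4, 0.09 for Trib1 and 0.12 for Dusp6 on the log2 scale, with 0.0123% of genes called. Dusp1 was at 0.55 ± 0.26, and Dusp14, at 0.12 ± 0.05, was the 1 member with an unadjusted p under 0.05. Early genes there were higher in 17 of 19, with a median of 0.35. In SSC it was 0.28 for Dusp5, 0.15 for Spry4 and 0.10 for Trib1, with 0.0252% of genes called, and Dusp5 ran from 6.32 to 24.0 CPM in WT and from 9.92 to 22.4 in KO. The KO effect in PFC was higher at 12 than at 4 weeks by 1.08 ± 0.43 for Dusp5, 0.80 ± 0.29 for Trib1, 0.66 ± 0.25 for Dusp6 and 0.55 ± 0.23 for Spry4. Those 4 had an unadjusted p under 0.05, where 2.29% of all genes were higher in that way, but the adjusted p was 0.851 for each and 0% of genes were called. No member passed the test of a changed KO effect with age in PFC, and in SSC it was not tested because the 4-week values chose the members.

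The other regions gave no call for any member in KO at 4 weeks. In HP, where 0.00609% of genes were called, Dusp5 was at -0.42 ± 0.17 and Spred1 at -0.20 ± 0.09, the 2 members with an unadjusted p under 0.05 and lower, as were 3.81% of all genes. In TH (0.0128% of genes called) Dusp4 was at -0.86 ± 0.38 and Spred1 at -0.36 ± 0.11, with 8.29% of all genes lower at that unadjusted threshold. Spred1 there ran from 71.8 to 98.4 CPM in WT and from 51.2 to 80.5 in KO. Spry4 in TH was 21.2 ± 5.08 CPM in WT and 14.8 ± 7.02 in KO, with KO 163 at 27.1 and the other KO libraries at 10.6 to 13.7. Of the 10 members 4 were lower in KO and 6 higher. The WT libraries WT 913, 914 and 23 were taken to stand apart in regional markers. Libraries said to stand apart, here and below, were listed by hand with no stated cut-off. The thalamic markers summed to 2624 to 6294 CPM over WT and 4979 to 6658 over KO. Without those 3 libraries, all of them WT, Dusp4 was at -0.62 and Spred1 at -0.27. In SN (0.00617% of genes called) no member reached an unadjusted p under 0.05, and the farthest from 0 were Dusp14 at -0.59 and Dusp5 at -0.51. Without WT 42, WT 92, KO 44 and KO 91, which stand apart in regional markers, they were at -0.84 and -0.73, still uncalled.

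The striatum was the region with the most KO differences in the series, and the feedback inhibitors were not called among them. At 4 weeks 516 of 15425 genes (3.35%) were called, and 0 of 10 members, a count near that share. Dusp1 was at 0.38 ± 0.19 and Spry4 at -0.32 ± 0.19, with Spry4 levels of 8.50 to 18.7 CPM in WT and 7.59 to 14.1 in KO. Libraries KO 51, 161 and 163 and WT 92 of this set were listed by hand as standing apart in regional markers. Cortical and hippocampal excitatory markers summed to 956 to 3021 CPM over WT and 1420 to 2578 over KO. Striatal projection neuron markers summed to 8397 to 15630 CPM over WT and 5019 to 16280 over KO. Without the listed libraries Trib1 moved from 0.17 to -0.42, Dusp4 from 0.14 to -0.69 and Spry4 from -0.32 to -0.66, still with 0 called. The part of dissection in these values was not tested. Between KO and HET 3.88% of genes and 0 members were called.

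At 12 weeks in STR all 10 members were higher in KO, with a median log2 fold change of 0.21, and 0 were called, where 691 of 15622 genes (4.42%) were. Beside them, striatal projection neuron markers were lower in 8 of 8 (median -0.21, 3 called; summed level 7846 to 11410 CPM in WT and 7337 to 9627 in KO), 1 of 6 interneuron markers was called, and early genes were higher in 11 of 19 (median 0.36). Their part in the members' values was not tested. At this age 9 of 10 members were also higher in KO in TH, 8 in SSC, 8 in SN, 7 in PFC and 4 in HP. The medians were 0.13 in TH, 0.11 in SSC, 0.05 in SN, 0.09 in PFC and -0.04 in HP. In STR, WT 1 was the lowest WT library for 6 of the 10 members. Dusp5 was 5.11, 9.95, 8.27, 11.1 and 13.9 CPM in WT, 7.46 to 15.7 in HET and 13.3, 12.9, 14.1, 19.0 and 21.9 in KO. Only the highest WT library reached into the KO range. The means ± SD were 9.68 ± 3.28 in WT and 16.2 ± 4.01 in KO, a log2 fold change of 0.74 ± 0.24 (adjusted p 0.111), and 0.57 to 0.91 with 1 library left out. DESeq2 called Dusp5 (adjusted p 0.0365, at a background of 6.6% of genes). With the early-gene score as a covariate edgeR did too (0.69, adjusted p 0.00747). The share of all genes called in that covariate fit is not given. The score also holds Egr2 and Ier5, themselves called in KO here, so its part and that of genotype cannot be told apart. Nothing is read from the covariate call.

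Dusp6 and Spry1 in the same set had an unadjusted p under 0.05, as did 7.2% of all genes in the higher direction. Dusp6 ran from 20.8 to 51.0 CPM in WT and 38.7 to 79.9 in KO, with a log2 fold change of 0.48 ± 0.22, and Spry1 from 6.49 to 8.48 and 7.5 to 10.5, with 0.22 ± 0.09. Both overlapped between genotypes. Between KO and HET 4.79% of genes and 0 members were called. The KO effect in STR minus the mean of the other regions was called for 0 members at either age, against 3.92% of genes at 4 weeks (SSC left out) and 3.11% at 12 weeks. For Dusp5 that difference was 0.71 ± 0.37 at 4 weeks and 0.54 ± 0.28 at 12 weeks.

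**Figure D3:**
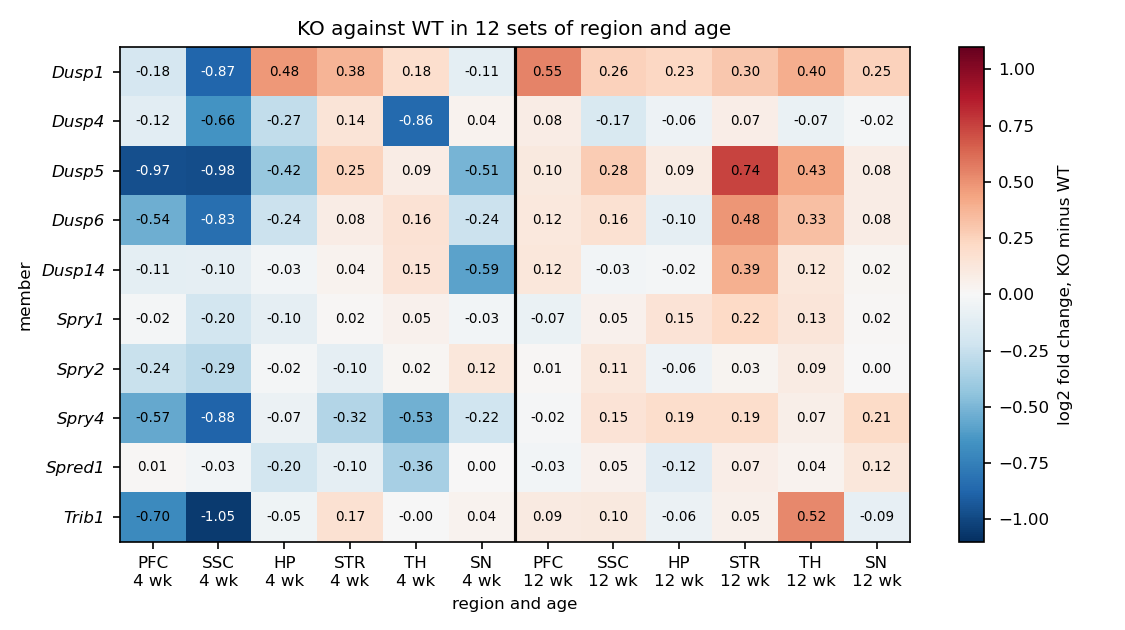
Log2 fold change of KO minus WT (colour and printed value) for the 10 members (rows) in the 12 sets of region and age (columns). The 4-week PFC and SSC columns hold the most negative values for Dusp5, Spry4 and Trib1. The 12-week STR column is above 0 in 10 of 10 rows and the 12-week TH column in 9.

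Around the members, genes of the pathway were called in KO striatum in both directions. At 4 weeks Spred3, a relative of Spred1, rose by 0.53 on the log2 scale (41.6 ± 4.61 CPM in WT, 59.9 ± 7.44 in KO). The ERK-activated kinase gene Rps6ka3 fell by 0.36, and Elk1, an ETS factor that ERK phosphorylates, fell by 0.56. The early gene Egr2 fell by 3.53, from 43.3 ± 19.3 to 3.72 ± 1.68 CPM, and Egr1 fell by 0.89. With 3.35% of all genes called, calls were made for 1 of 18 other feedback genes, 1 of 16 ERK-responsive genes, 2 of 19 early genes and 0 of 20 ligands and receptors tested.

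At 12 weeks in STR the RAS GTPase activator gene Rasal1 rose by 0.77, the scaffold gene Ksr1 by 0.57, the adaptor gene Shc3 by 0.50 and the MEK gene Map2k1 by 0.22. Elk1 fell by 0.47, the cyclin gene Ccnd1 by 0.44, Egr2 by 2.99 and Ier5 by 0.31. Of 18 other feedback genes 1 was called, of 28 cascade genes 3, of 16 ERK-responsive genes 2, of 19 early genes 2 and of 20 ligands and receptors 0. These 8 calls stand beside 4.42% of all genes called in the same comparison. In the 9 sets other than STR and 4-week SSC, 0 genes of these lists were called.

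In the remaining KO comparisons at 12 weeks 0 members were called, with 0.00608% of genes called in HP, 0.0064% in TH and 0.0364% in SN. In TH 3 members were higher with an unadjusted p under 0.05, as were 4.21% of genes. Dusp5 there ran from 10.6 to 17.5 CPM in WT and 16.5 to 24.8 in KO (log2 fold change 0.43 ± 0.14), Dusp6 from 38.9 to 56.7 and 50.6 to 66.8 (0.33 ± 0.11), and Trib1 from 15.3 to 36.3 and 26.6 to 46.8 (0.52 ± 0.20). All 3 overlapped between genotypes, and their adjusted p ran from 0.505 to 0.571.

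HET libraries gave no call for any member in the 11 sets beyond SSC at 4 weeks. The share of all genes called was 0.00626% in PFC, 0% in HP, 0.00648% in STR, 0.00639% in TH and 0% in SN at 4 weeks. At 12 weeks it was 0.00613% in PFC, 0.00629% in SSC, 0.00608% in HP, 0.0064% in TH and STR alike and 0.00606% in SN. In SSC at 4 weeks it was 0.00627%, with 0 members. The direction differed between sets. In HP at 4 weeks 8 of 10 members were higher in HET (median 0.17). An unadjusted p under 0.05 was held by 3 of them, all higher, and by 6.82% of all genes in either direction. At that threshold 2 members were higher in TH at 4 weeks (16.3% of genes) and 2 at 12 weeks (9.36%). At 4 weeks 3 were lower in PFC (4.79%) and 2 in SN (8.9%). The largest HET value was that of Dusp5 in SN at 4 weeks, at -1.63. The WT group there includes WT 42 and WT 92, at 8.17 and 8.96 CPM of Dusp5, and HET was not refitted without them.

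In WT animals the members were tested between 12 and 4 weeks in the 5 regions that did not choose them. The labels do not say whether the 2 ages were processed together. Their sample numbers differ in kind, and the 16 libraries with few whole values were all of 4 weeks. Age and processing therefore cannot be told apart in these comparisons. In PFC 2204 genes (13.8%) were called, and of the members Spry4, whose level fell by 0.55 ± 0.15 on the log2 scale (adjusted p 0.0290), from 15.8 to 26.2 CPM at 4 weeks to 10.3 to 18.1 at 12 weeks. That call was lost without WT 23 or WT 914 of 4 weeks or WT 1 or WT 5 of 12 weeks (adjusted p 0.055 to 0.0735). Dusp5 (-0.67), Trib1 (-0.61), Dusp6 (-0.58) and Spry2 (-0.21) had an unadjusted p under 0.05. DESeq2 called Dusp6, Spry4 and Trib1, at a background of 19.1% of genes. These WT libraries are also the controls of the KO comparison in PFC, so the 2 comparisons share them.

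In SN Dusp5 was called between ages (-2.12 ± 0.54, adjusted p 0.0496), where 4.24% of genes were. It was 1.89, 4.64, 8.17, 1.88, 0.934 and 8.96 CPM at 4 weeks and 0.852 to 1.23 at 12 weeks. The values of 8.17 and 8.96 belong to WT 42 and WT 92, whose dopamine neuron markers summed to 33.6 and 223 CPM against 982 to 2826 in the other 4, while their thalamic markers summed to 2955 and 1089 against 477 to 1097. Without both, Dusp5 was at -1.22 ± 0.36 (adjusted p 0.0413) and Dusp6 was also called, at -0.44. That refit called far more genes in all than the full one (the count is given in the last section). The share of 4.24% is thus not the background of these 2 calls. With 1 library left out, Dusp5 was called in 4 of 11 fits (adjusted p 0.0174 to 0.129) and ran from -2.33 to -1.79. The call was lost without WT 23 or WT 42 of 4 weeks or any 1 of the 5 libraries of 12 weeks, and with no low-count filter (adjusted p 0.0516). In HP (12.9% of genes called), STR (13.6%) and TH (14.3%) 0 members were called. In SSC, as a description, Trib1 was lower at 12 weeks by a log2 value of -0.89, Dusp1 by -0.76, Dusp6 by -0.74, Dusp5 by -0.61 and Spry4 by -0.46. The KO effect did not pass between ages for any member in HP, STR, TH or SN, where 0% of genes were called in each.

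Levels of the members in WT differed widely between regions, and each had its own order. At 12 weeks each region was tested against the mean of the other 5, with 57% of 17180 genes called in PFC, 56.4% in SSC, 54.4% in HP, 67.3% in STR, 66.9% in TH and 67.8% in SN. Of the 10 members 7 were called in PFC, HP, TH and SN and 6 in SSC and STR, shares near those of all genes. Values at 4 weeks are given as levels only. In what follows a level is a mean ± SD in CPM over 5 WT libraries at 12 weeks, unless another age is named.

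Dusp5 spanned the widest range. It was 23.5 ± 7.16 in HP, 14.8 ± 6.31 in SSC, 14.5 ± 2.57 in TH, 9.68 ± 3.28 in STR, 9.02 ± 4.33 in PFC and 1.01 ± 0.148 in SN, 23.3 times lower than in HP. Each neighbour in that order overlapped the next except PFC and SN. Against the mean of the other regions, HP was higher by 1.71 ± 0.20 and SN lower, at -3.74 ± 0.32, on the log2 scale. Dusp6 ran from 67.6 ± 15.5 in PFC and 65.8 ± 20.1 in SSC through HP, TH and STR to 12.1 ± 1.52 in SN, where its difference from the other regions was -2.18. Here too only STR and SN, the last neighbours, did not overlap.

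Dusp4, a nuclear phosphatase gene, was highest in the hippocampus: 29.0 ± 4.11 in HP, against 10.7 ± 3.20 in SSC, 7.06 ± 2.07 in TH, 6.86 ± 0.821 in SN, 6.204 ± 1.29 in PFC and 4.58 ± 2.59 in STR. HP lay above all other libraries (2.09 ± 0.17 on the log2 scale), and the other 5 regions overlapped along the order. At 4 weeks HP was at 27.3 ± 3.87 and again apart from SSC. Dusp1 had a nearly opposite place for HP, with 53.2 ± 17.4 in TH, 48.9 ± 21.9 in PFC, 40.6 ± 13.8 in STR, 31.9 ± 12.2 in SSC, 15.8 ± 3.63 in SN and 15.7 ± 6.95 in HP. TH was higher by 0.94 and HP lower, at -1.17, against the mean of the others. Neighbours overlapped throughout that order.

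Dusp14 separated the cortical and striatal samples from the rest: 89.3 ± 7.93 in SSC, 77.7 ± 4.85 in PFC and 70.1 ± 13.7 in STR, with a gap to 32.5 ± 6.48 in HP and 28.3 ± 2.36 in TH and another to 6.39 ± 0.616 in SN. On the log2 scale its difference from the others was 1.5 in SSC, 1.24 in PFC, 1.09 in STR, -0.50 in TH and -3.08 in SN. Trib1 was highest in PFC (27.5 ± 8.63), TH (24.5 ± 8.21) and SSC (19.9 ± 6.28) and lowest in SN (10.01 ± 1.24) and STR (8.89 ± 2.17). PFC was higher by 0.96 and STR lower, at -0.97. Leaving out single libraries ended the calls of Trib1 and Spry2 in SSC, of Dusp4 in PFC and of Dusp6 and Dusp14 in HP.

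Among the Sprouty genes, Spry2 was highest in STR at 92.2 ± 15.98, above every library of the other regions, and lowest in SN at 20.3 ± 1.93. STR was higher than the mean of the others by 1.52 ± 0.08. Spry1 ran from 12.2 ± 1.42 in HP to 5.57 ± 0.112 in PFC, with HP higher by 0.63 and PFC lower, at -0.73. Spry4 was the most even member, from 18.03 ± 3.35 in SN to 10.1 ± 2.93 in STR, a ratio of 1.79, and each neighbour overlapped the next. STR, at -0.64, was its only called region. Spred1 was highest in STR at 212 ± 22.2 (0.89) and lowest in TH at 78.7 ± 15.2 (-0.85). The reading of Spry1 may include reads of a gene that overlaps it on the other strand.

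**Figure D4:**
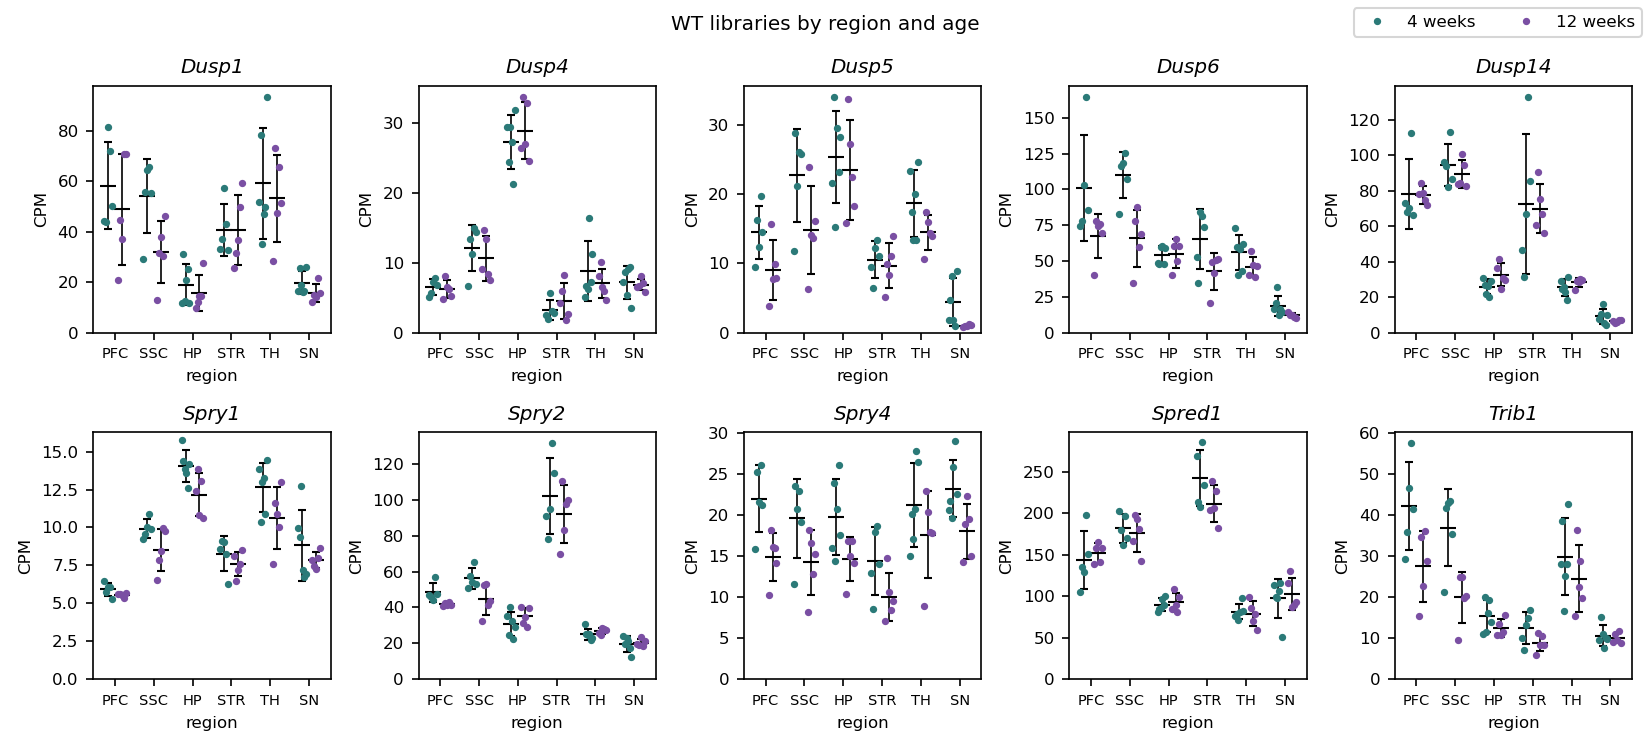
Levels in CPM (vertical axis) of the 10 members in WT libraries by region (horizontal axis), teal for 4 weeks and purple for 12 weeks; points are libraries and dashes with bars the mean ± SD. Dusp4 is highest in HP at both ages (27.3 and 29.0 CPM), Spry2 and Spred1 in STR, and Dusp5, Dusp6 and Dusp14 are lowest in SN.

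The members differed in how much they varied between libraries of 1 group. The median coefficient of variation over the 36 groups was 9.87% for Spry1, 10.6% for Spry2, 12.5% for Spred1 and 12.6% for Dusp14. It was 18.3% for Dusp6, 18.7% for Spry4, 24.1% for Trib1, 24.7% for Dusp4, 25.2% for Dusp1 and 25.7% for Dusp5. The genes with a large KO difference in SSC at 4 weeks are also those with the larger spread. Low WT libraries were shared between some regions. At 4 weeks WT 142 was lowest for 8 of 10 members in SSC and 6 in PFC, but for 2 in HP, 2 in TH, 0 in STR and 0 in SN, while WT 42 was lowest for 7 in STR and 5 in TH. At 12 weeks WT 1 was lowest for 8 members in PFC, 7 in SSC, 6 in STR, 6 in TH, 4 in HP and 3 in SN, and for 14, 11, 11, 6, 9 and 11 of 19 early genes in the same order.

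Deviations of each library from its group mean, on the scale log2(CPM + 1) over all libraries of both ages, were compared across 14088 genes as a description, with libraries sharing depth, dissection and possibly animals. Dusp5 was most like Dusp6 (Pearson r 0.649), Spata2l (0.598) and Nab2 (0.576). Dusp6 was most like Midn (0.695), the nuclear receptor gene Nr4a1 (0.693) and Dusp5. Dusp1 was most like Fos (0.669), Trib1 (0.658) and Ier2 (0.595), and Trib1 most like Dusp1, Per1 (0.652) and Gpr3 (0.649). Spry4 was nearest to Gpr3 (0.705), Stk40 (0.634) and Per1 (0.630).

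The other members had different neighbours. Spry2 was nearest to Dusp6 (0.522), Midn (0.489) and Zfp385b (0.480), Dusp4 to Prdm2 (0.588), Lrrn3 (0.581) and Ints8 (0.567), and Dusp14 to Dnajb5 (0.683), Josd1 (0.612) and Lingo1 (0.608). Spred1 was nearest to Tmem33 (0.774), Golph3 (0.770) and St13 (0.761), and Spry1 to Elk1 (0.458), with Arsj at 0.439. With the mean of 18 early genes the r was 0.624 for Trib1, 0.568 for Dusp6, 0.513 for Dusp1, 0.504 for Spry4, 0.406 for Dusp5 and 0.389 for Dusp4. It was 0.326 for Spry2, 0.261 for Dusp14, 0.145 for Spred1 and 0.0594 for Spry1. With the library total the largest was 0.202, for Spred1.

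**Figure D5:**
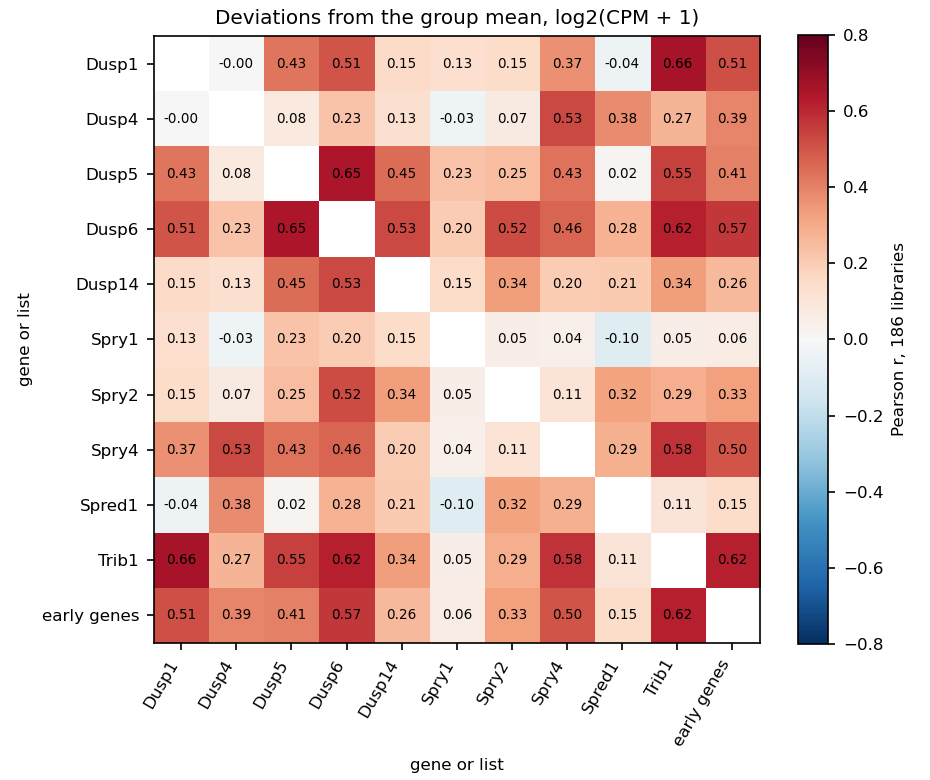
Pearson r (colour and printed value) between the deviations from the group mean of each pair of members and the early-gene mean, on the log2(CPM + 1) scale. All libraries of both ages are pooled. Dusp1 with Trib1 (0.658) and Dusp5 with Dusp6 (0.649) are the highest pairs among members, and Spred1 and Spry1 are weakly tied to the early genes (0.145 and 0.0594).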

How the data were processed

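RNA was measured in 96 libraries at 4 weeks and 90 at 12 weeks, in 36 groups, 30 of 5 libraries and 6 of 6. The authors deposited a single table of expected counts, which are estimated counts per gene symbol, and 77.9% of its values above 0 were not whole. Per the submitters' processing notes, Salmon and mm10 were used. TruSeq Stranded mRNA libraries were made from RNA of regions cut from frozen brain, per the labels. Whether counting used the strand is not stated. Totals ranged from 20.8 to 73.3 M. Nothing in the labels says that libraries came from separate animals, so p-values measure only the spread between these libraries.

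Expected counts were rounded to whole numbers. The 3 genotypes of a region and age entered 1 fit in edgeR 4.0.16 under R 4.3.3 (TMM, filterByExpr, estimateDisp, glmQLFit, glmQLFTest), with Benjamini-Hochberg adjustment over all genes tested and calls at an adjusted p under 0.05. The SE is the size of the log2 fold change over the square root of F. CPM is TMM-scaled over all libraries. In the order of levels, neighbours were compared by their ranges. Likeness used genes with a mean CPM of at least 1, a pseudocount of 1, and the 3 genes nearest to each member. Alternatives were DESeq2 1.42.0, no filter on low counts, 2 genotypes in the fit, a covariate for 16 libraries with few whole values, an early-gene covariate, sets without libraries that stand apart, and leaving out each library. The edgeR test was checked on simulated counts. In 390 pairs of replicates, the counts differed beyond sampling noise (lowest chi-square per degree of freedom 7.97). Every column was mapped to samples by name.

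Named are the 10 members, Akap11, the 3 most alike genes of each member, and up to 4 called genes of each list, apart from results that are not reported here. Early genes and other list members beyond these were picked with their values in view. The members and the lists were chosen with earlier results of these data known. Symbols were placed on GRCm38 with GENCODE M21, and promoter windows are RefSeq's of GRCm38.p6.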

Additional observations from a re-analysis of the deposited data

Results flagged for a closer look

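For 28 of 360 combinations of member and group, 1 library lay far from the others by Dixon's criterion, where chance gives about 1 in 20. Levels below are CPM, with the range of the other libraries of the group in brackets.

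At 4 weeks such values in the phosphatase genes were these. Dusp1 was 29.3 in WT 142 of SSC (55.3 to 65.7) and 48.9 in KO 51 of HP (18.5 to 22.8). Dusp4 was 10.3 in HET 11 of SN (7.35 to 7.74). Dusp5 was 16.2 in HET 162 of HP (22.9 to 24.5) and 2.64 in HET 93 of SN (0.91 to 1.37). Dusp14 was 113 in WT 914 of PFC (66.3 to 73.2), 61.3 in HET 93 of PFC (77.2 to 81.1), 106 in HET 931 of SSC (73.6 to 83.7) and 60.4 in HET 941 of HP (24.5 to 34.4).

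A single SN library, KO 91 of 4 weeks, was high in 3 phosphatase genes. Its Dusp5 was 8.48 (1.20 to 2.99), its Dusp6 30.3 (9.68 to 15.0) and its Dusp14 13.6 (3.28 to 4.99). Its dopamine neuron markers summed to 156 CPM and its thalamic markers to 2064, and their part in these values was not tested.

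Among the other members at 4 weeks, Spry2 was 57.2 in WT 914 of PFC (44.4 to 47.5) and 29.2 in HET 931 of TH (22.2 to 23.8). Spry4 was 25.1 in KO 163 of HP (17.0 to 17.6), 32.8 in HET 162 of TH (15.7 to 19.3) and 27.1 in KO 163 of TH (10.6 to 13.7). Spred1 was 50.9 in the SN library labelled WT 92 (97.6 to 116). Trib1 was 29.8 in HET 941 of HP (13.7 to 17.4) and 20.2 in HET 93 of TH (39.5 to 45.1).

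At 12 weeks Dusp1 was 27.6 in WT 5 of HP (9.58 to 14.7) and 93.8 in KO 5 of PFC (59.3 to 68.8). Dusp6 was 40.5 in WT 1 of PFC (69.5 to 77.9). Dusp14 was 38.8 in KO 2 of HP (29.3 to 31.8), 86.7 in HET 2 of PFC (75.9 to 78.9), 37.4 in KO 3 of TH (27.6 to 29.9) and 24.2 in WT 1 of TH (28.7 to 30.1). Spry1 was 6.59 in KO 5 of SN (8.08 to 8.55).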

How the results depend on the processing

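The number of members called was set beside that of other settings (RLE size factors, no low-count filter, DESeq2, 2 genotypes in the fit, covariates, libraries left out that stand apart, replicate block). It stayed within 1.5 times the reported one in 184 pairs of a comparison and a setting and moved further in 6. A count of 0 that stayed 0 was taken as unchanged. The reported count was 0 in every comparison of genotypes included, so there the 1.5-fold band has no meaning. With DESeq2, 3 members were called between KO and WT in PFC at 4 weeks, against 0, and 3 between ages in WT PFC, against 1. In STR at 12 weeks 1 was called between KO and WT with DESeq2 and 1 with the early-gene covariate, against 0. Between ages in SN, 0 were called with no low-count filter and 2 without the libraries that stand apart, against 1. Leaving out 1 library gave 0 to 2 members in the PFC comparison of KO with WT at 4 weeks, 0 to 2 between ages in PFC and 0 to 2 in SN. The cause of these differences was not tested. The shares of all genes called with 1 library left out, with no low-count filter or with the early-gene covariate are not given. Nothing is therefore read from the member counts of those refits. No called value changed sign. DESeq2 also called more genes in all, namely 978 against 516 between KO and WT in STR at 4 weeks (174 with 2 genotypes in the fit), 132 against 2 in PFC, 200 against 2 in TH, 31 against 1 in SN and 45 against 9 in SSC. Between HET and WT it called 387 against 1 in TH and 27 against 0 in HP at 4 weeks, and 22 against 1 in TH at 12 weeks. Between KO and HET in STR it called 1333 against 599 at 4 weeks and 1177 against 749 at 12 weeks. Between ages in SN it called 1834 against 679, and 2730 were called by edgeR without the libraries that stand apart. Scaled within a set, mean Spry1 in SSC at 4 weeks was 9.27 CPM in WT and 9.05 in HET.

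At 12 weeks the genotypes share replicate numbers 1 to 5. With the replicate block, 0 members were called between KO and WT or between HET and WT in the 6 regions, and 992 genes were in STR, against 691. In the comparison of WT regions the block gave 7 members in PFC, 6 in SSC, 8 in HP, 7 in STR, 9 in TH and 9 in SN. Without the block, 54.4% (HP) to 67.8% (SN) of all genes were called there. The share with the block is not given, so nothing is read from these counts. The KO effect in STR against the other regions had 0 members at both ages with the block. Same-numbered libraries of a region correlated above 0.1 in 6 (SN) to 13 (HP) of 15 pairs. Their median r was 0.0694 (SN) to 0.261 (PFC), against -0.102 (STR) to -0.0194 (SN) for other numbers. From 5 (STR) to 12 (TH) of 15 libraries correlated best with their own number. Across regions, WT libraries of 1 number had a median r of 0.135, against -0.0397 for other numbers. Libraries of 1 number thus shared some variation. What a number marks is not stated, and the main fits did not pair by it. At 4 weeks the genotypes share no number.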
